A study of Mus musculus with 32 samples.

Results

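The mitochondrial respiratory chain and the ATP synthase are built from subunits encoded mostly in the nucleus, and the transcripts of 79 such genes were followed in mouse photoreceptors. They were taken by symbol from the 54232 genes of the count table: protein-coding genes beginning with Ndufa, Ndufb, Ndufc, Ndufs or Ndufv (assembly factors named Ndufaf left out), Sdha to Sdhd, Uqcr, Cyc1, Cox4 to Cox8, and Atp5. A total of 87 genes fitted these symbols, and 79 of them reached a mean of 5 CPM (read counts scaled to the size of the library) over the 32 libraries. Of the 79, 37 belong to complex I, 4 to complex II, 9 to complex III, 12 to complex IV and 17 to complex V.

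Complexes I to IV pass electrons from NADH and succinate to oxygen and, except for complex II, pump protons out of the mitochondrial matrix, and complex V uses the returning protons to make ATP. A further small set of core subunits is encoded in the mitochondrial genome itself, while complex II is wholly nuclear. Photoreceptors pack their inner segments with mitochondria, and keeping the ion gradients of the dark current running is among the costliest tasks in the body.

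The cells were cut by laser capture microdissection from frozen eyes of male mice aged 6 weeks, of strain C57BL/6/J x 129 SvEvBrd. Wild-type (WT) animals were compared with animals carrying both clock gene mutations, Per1-/-Per2Brdm1 (called KO here). Both genotypes were sampled at circadian time (CT) 19, 22, 1 and 10. The 8 groups held 4 libraries each, named below by group and replicate number. The mutations are present in every cell of the animal, the title of WT CT1 replicate 5 names 2 animal numbers, and nothing in the labels says whether the library numbers stand for a batch.

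Library totals ran from 23833604 to 34582742 counts, so that 5 CPM rested on at least 119 counts. Rod genes were abundant in every library: Gnat1, the alpha subunit of rod transducin, stood at 19134 CPM on average and the cone opsin Opn1sw at 1059 CPM. Per1 averaged 118 ± 18.7 CPM in WT and 208 ± 41.0 in KO, and Per2 30.7 ± 8.30 and 198 ± 24.5 (SD, n = 16 libraries per genotype); neither gene overlapped between the genotypes, but a total over the whole gene does not read the deleted part and so does not check the deletion. Transcripts of inner retinal neurons and glia were lowest in WT at CT10. Over the mean of the times, 12 of 14 bipolar and 6 of 14 Mueller glia markers were called higher in KO. So were 6 of 8 horizontal, 4 of 12 amacrine and 1 of 8 ganglion markers. The mean log2 CPM of the amacrine list was lower in KO at CT22 (2.27 against 2.33) and at CT1 (1.78 against 1.89). Of 9 rod markers 1 was called higher and 4 lower in KO, and of 8 cone markers 4 were called lower, where 16.3% of all tested genes were called. The part of these shifts in the results was not tested beyond the covariate fits given below. Lens transcripts varied most, from a mean log2 CPM of 3.59 over the marker list in WT at CT19 to 7.50 in WT at CT1. In these bulk samples fewer cells of a type and less RNA per cell cannot be told apart.

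In 4 libraries the 79 genes as a body stood more than 0.3 log2 units from their mean over all libraries. WT CT1 replicate 5 had a median deviation of 0.52 and WT CT19 replicate 4 one of 0.39. WT CT19 replicate 3 lay at -0.31 and KO CT22 replicate 4 at -0.39. Results that rest on these libraries are given with and without them.

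Levels were compared between genes per kilobase of transcript, taking the longest of a gene's principal transcripts. Atp5b, which encodes the catalytic beta subunit of ATP synthase, was highest of all at 469 CPM per kilobase. Ndufa4, named for complex I and since placed with cytochrome c oxidase, followed at 232, and Atp5a1, the alpha subunit, stood at 187. Cox4i1, a core-stabilising subunit of complex IV, led its complex at 169, Uqcrh, the hinge protein of complex III, at 155, and Sdha, the flavoprotein that oxidises succinate, led complex II at 89.8. Median levels were 41.9 for complex I, 34.1 for complex II, 51.9 for complex III, 73.7 for complex IV and 61.2 for complex V, in CPM per kilobase. The order depended on the transcript model. With the shortest principal transcript of each gene the medians were 44.2, 34.1, 54.0, 73.7 and 83.5, and complex V in place of IV was highest.

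Within a complex the subunits were far from even. The span from lowest to highest was 3.77-fold in complex II, where Sdhc, a membrane anchor, was lowest at 23.8 CPM per kilobase, and 4.44-fold in complex III, where Uqcrq was lowest at 34.9. It was 23.9-fold in complex IV, 24.0-fold in complex I and 106-fold in complex V. The lowest gene of complexes I, III and V depended on the transcript model: Ndufab1, the mitochondrial acyl carrier protein, stood at 9.66 and Atp5g1 at 4.42 CPM per kilobase, but at 23.7 and 34.9 with their shortest principal transcript, and Uqcrq at 131 in place of 34.9. With the shortest models Ndufa12 at 16.1, Uqcr11 at 37.2 and Atp5s at 6.15 were the lowest of these complexes, while Ndufa4, Sdha, Uqcrh, Cox4i1 and Atp5b kept the top places.

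**Figure D1:**
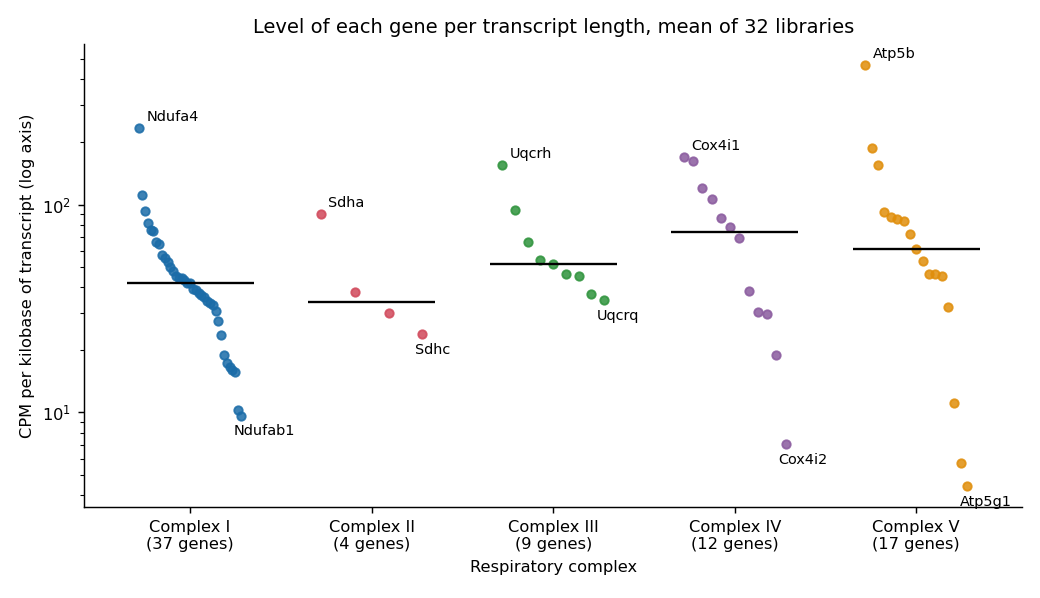
Mean level of each of the 79 genes over 32 libraries in CPM per kilobase of transcript (log axis), grouped by complex on the horizontal axis; each point is a gene and each black line the median of its complex. Atp5b stands highest at 469, and the 4 genes of complex II span the narrowest range.

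Several subunits exist as alternative isoforms made by separate genes, and in each such set the isoform known from most tissues stood far above the tissue-restricted one. Cox4i1 averaged 169 CPM per kilobase against 7.05 for Cox4i2, the isoform known from lung. Cox6a1 stood at 162 CPM per kilobase while Cox6a2, known from heart and skeletal muscle, had a mean of 0.0843. Cox6b1 stood at 86.7 and Cox6b2, known from testis, at 3.47, on the same scale.

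Cox7a2 reached 69.2 CPM per kilobase and its relative Cox7a2l, a factor of supercomplex assembly, 30.3, whereas Cox7a1 of heart and muscle was at 2.17. Cox8a stood at 121, Cox8b at 0.283, and Cox8c had no count in any library, which at 3 counts allows at most 0.126 CPM in the shallowest library, counting error only. Ndufa4 exceeded Ndufa4l2 with 232 against 0.335 CPM per kilobase. The c subunit of ATP synthase, identical once mature, is encoded by Atp5g1, Atp5g2 and Atp5g3. Atp5g3 led this set with 155 CPM per kilobase, Atp5g2 stood at 11.1 and Atp5g1 at 4.42, or 34.9 with its shortest model; 87.4% of the 50-base stretches of Atp5g2 also occur in other genes, so its level is uncertain.

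The minimum of 5 CPM separated few genes. Just inside it were Cox4i2 at 5.23, Atp5g2 at 8.13 and Atp5s at 9.13 CPM before scaling, and just outside were Cox6b2 at 2.03 and Cox7a1 at 0.851. The other genes outside it were Cox6a2, Cox8b, Cox8c, Ndufa4l2, Cox7b2 at 0.00638 CPM, and a second entry named Atp5o with no count. A further 13 genes with these symbols are annotated as non-coding; among them Ndufb1-ps, annotated as a lncRNA from a bidirectional promoter, had 26.2 CPM.

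Together the 79 genes took 0.558% of all counts, a summed 5581 ± 620 CPM (SD, n = 32). Complex V contributed 2089 ± 227 CPM, complex I 1850 ± 209, complex IV 628 ± 100, complex III 597 ± 81.9 and complex II 416 ± 30.8. In the order CT19, CT22, CT1 and CT10, WT summed to 5874 ± 712, 5585 ± 472, 6274 ± 1086 and 5298 ± 296 CPM (SD, n = 4 libraries each). KO summed to 5495 ± 183, 5323 ± 869, 5412 ± 314 and 5385 ± 192 CPM in the same order. The highest and the lowest group mean were both WT, at CT1 and CT10, but without WT CT1 replicate 5 the CT1 sum was 5820 ± 729 CPM (n = 3), below that of CT19. The libraries of these groups overlapped, from 5138 to 7636 CPM at CT1 and from 4995 to 5658 at CT10.

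The genes moved up and down together from library to library. The spread of their median deviation between libraries of a group was 0.18 log2 units (pooled SD). The 8 group means had an SD of 0.08. Averages of 4 libraries vary less than single libraries, so these SDs are not alike and do not show which spread is larger. In WT CT1 replicate 5, 77 of the 79 genes lay above their own mean and in WT CT1 replicate 1, at a median deviation of 0.27, 75 did. In KO CT22 replicate 4, only 6 did, and in WT CT19 replicate 3 only 12. The 16 WT libraries ranged from -0.31 to 0.52 and the 16 KO libraries from -0.39 to 0.17, so the genotypes overlapped nearly throughout.

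Complexes I, III, IV and V followed one another closely: across the 32 libraries, Pearson's r between their median deviations ran from 0.94 (III with IV or with V) to 0.98 (IV with V, I with V). Complex II was looser, with r from 0.69 (with IV) to 0.78 (with III). In the library with the highest median, WT CT1 replicate 5, the deviation was 0.63 for complex IV and 0.30 for complex II. All these points share library, depth and scaling. The typical spread within groups was smallest for complex II, at a median SD of 0.13 log2 units, and 0.23, 0.21, 0.26 and 0.19 for complexes I, III, IV and V. Complex II has only 4 genes and the longest transcripts, at a median of 2065.5 bases. The medians of the other complexes ran from 696 to 1363 bases. The part of transcript length in the smaller spread and looser r of complex II was not tested. Ndufs1, the largest core subunit of complex I, was the steadiest gene at 0.08, and Cox4i2, the lowest in counts of all, the most variable at 0.53.

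**Figure D2:**
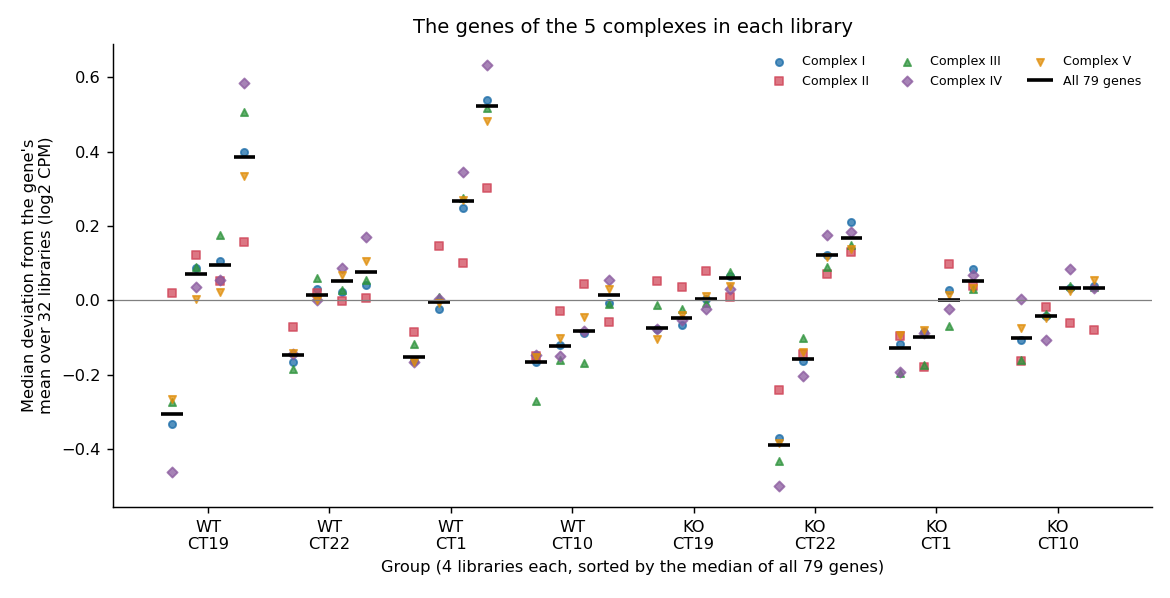
Median deviation of the genes of each complex (coloured points) and of all 79 genes (black bars) from each gene's mean over 32 libraries, in log2 CPM, for the 4 libraries of each group on the horizontal axis. WT CT1 replicate 5 lies at 0.52 and KO CT22 replicate 4 at -0.39, and complex IV spreads more widely than complex II.

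Some other gene sets moved up and down with the 79 genes, but by other amounts. The median deviation of the 79 genes tracked that of 73 cytosolic ribosomal protein genes with r = 0.95 (Spearman's rho 0.86), and that of the 2424 other protein-coding genes in the shortest quartile, up to 2088 bases, with r = 0.86 (rho 0.84). Without the 2 libraries farthest from the median, these were 0.91 and 0.79. In size the sets differed. In WT CT1 replicate 5 the 79 genes lay at 0.52, the ribosomal protein genes at 0.78 and the shortest quartile at 0.25. In KO CT22 replicate 4 they lay at -0.39, -0.62 and -0.09. Against the longest quartile r was -0.50. The 79 genes are themselves short, with a median transcript of 865 bases against 3207 for other protein-coding genes, and 72 of them fall within the shortest quartile. With the 11 mitochondrially encoded transcripts that could be tested r was 0.13, with rod markers 0.47 (0.18 without the 2 farthest libraries), with lens markers 0.27 and with inner retina markers 0.06. With the group means taken out, r was 0.34 for the mitochondrially encoded transcripts. It was then 0.97 for ribosomal protein genes and 0.87 for the shortest quartile. These are descriptions over 32 libraries that share depth and scaling, and the part of transcript length or RNA quality in the movement was not tested.

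**Figure D3:**
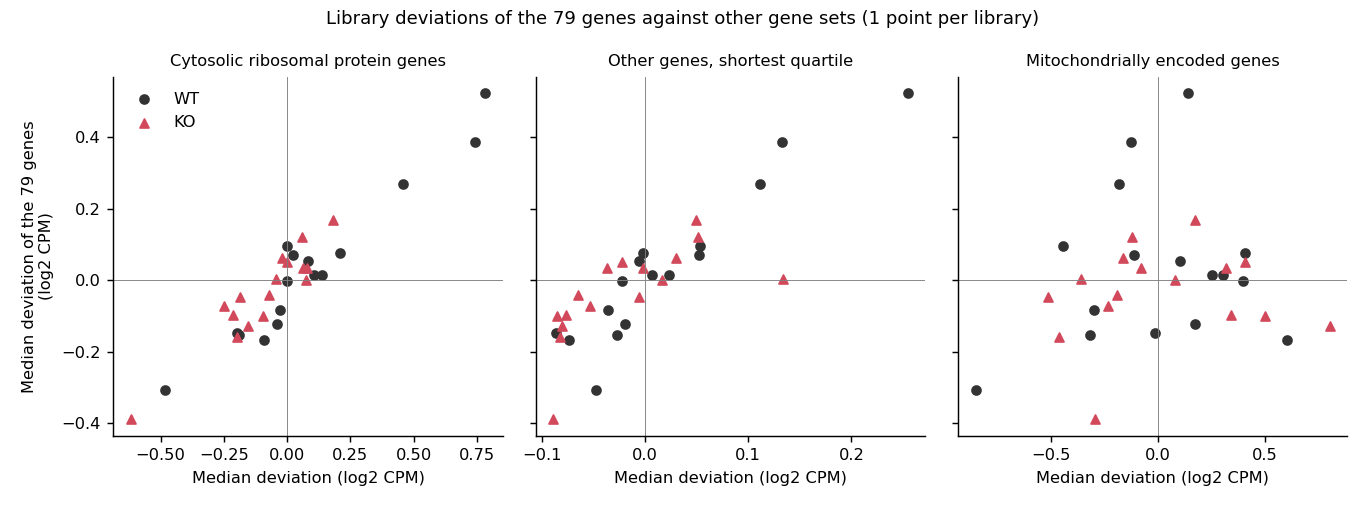
Median deviation of the 79 genes in each of 32 libraries (vertical axis, log2 CPM) against that of ribosomal protein genes, of other short protein-coding genes and of mitochondrially encoded genes (horizontal axes, log2 CPM); circles are WT and triangles KO. The points follow a line in the first 2 panels (r = 0.95 and 0.86) and scatter in the third (r = 0.13).

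Transcript length and mean CPM both went with the within-group SD of single genes. For mean CPM Spearman's rho was -0.42 over the 79 genes. The parts of length and level were not told apart. The 27 shortest, from 371 to 682 bases, had a median within-group SD of 0.31 log2 units and the 27 longest, from 1166 to 4715 bases, one of 0.16 (Spearman's rho of length with SD -0.64 over 79 genes, which are not independent). Each gene was correlated with the median of the other 78: r was at least 0.5 for 67 genes, with a median of 0.83. Atp5l, the g subunit of ATP synthase, at -0.32, and Ndufab1, at -0.30, went against the rest. For Atp5l, 84.8% of 50-base stretches occur in other genes as well, so its counts are uncertain. The genes lie on 19 chromosomes with at most 6 on any of them, and 3 (Ndufa1, Ndufb11 and Cox7b) are on X.

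The first comparison asked how the clock mutations changed these transcripts over the mean of the 4 times. Of the 79 genes, 4 were called, all lower in KO: Sdha, Cox5a, Ndufs5 and Ndufs3 (edgeR quasi-likelihood test, adjusted p under 0.05). Of all 17871 genes tested 16.3% were called, 6.4% lower and 9.88% higher, and of the 79 none was called higher. The median log2 difference of the 79 was -0.07 (KO minus WT), against -0.00 for all genes tested. Below 0 were 69 of 79, beside 9082 of all 17871 genes tested. By complex these were 30 of 37 in I, 4 of 4 in II, 8 of 9 in III, 10 of 12 in IV and 17 of 17 in V. At an unadjusted p under 0.05 there were 11 of 79, against 29.1% of all genes. The shift was small. With library totals alone 46 of 79 were lower at a median of -0.01, a scaling that moved the median of all genes to 0.06, so that the distance between the 79 and all genes stayed at -0.07. That distance was -0.03 with a length trend removed (47 lower) and -0.03 without the 4 libraries (49 lower), and -0.09 with inner retina markers as a covariate (71 lower).

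Sdha (ENSMUSG00000021577, GRCm38 chromosome 13, 74322254 to 74350280, minus strand) ranged in WT from 244 through a median of 273 to 327 CPM, and in KO from 214 through 242 to 292 CPM (16 libraries each). Most KO libraries lay below the WT median, though the ranges overlapped. It was lower in KO by -0.15 ± 0.045 (log2, SE; adjusted p = 0.0166) and negative at each time, from -0.09 at CT19 to -0.19 at CT10. The partner subunits of complex II, the iron-sulfur protein Sdhb and the anchors Sdhc and Sdhd, had differences of -0.06, -0.03 and -0.06 that did not pass. The call for Sdha held with any single library left out (adjusted p up to 0.0303), and was lost with library totals alone, at -0.09, and with the inner retina markers as a covariate, at -0.17 (adjusted p = 0.123), a difference no smaller than the one without it.

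Cox5a (ENSMUSG00000000088, chromosome 9, 57521274 to 57532426, plus strand), a matrix-side subunit of cytochrome c oxidase, ranged in WT from 42.7 through 53.6 to 74.1 CPM and in KO from 32.5 through 46.6 to 57.1 CPM. It was lower in KO by -0.22 ± 0.065 (log2, SE; adjusted p = 0.0204). The gap was widest at CT1, where WT libraries read 63.7, 53.8, 50.6 and 74.1 CPM and KO libraries 40.6, 47.4, 46.6 and 43.1. All 4 KO libraries lay below all 4 WT libraries at that time, with a difference of -0.45 ± 0.130 and an adjusted p of 0.0797, so Cox5a was not called there. How many of all tested genes lacked overlap at CT1 was not counted. At CT10 the groups were level, 46.5 ± 4.12 against 46.3 ± 1.61 CPM (SD, n = 4 each). The mean call held with any single library left out (adjusted p up to 0.0445) and was lost with inner retina markers as a covariate (at -0.25), with lens markers (at -0.17) and with library totals alone (at -0.16).

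Ndufs5 and Ndufs3, an accessory subunit of complex I and a core subunit of the arm that takes up electrons from NADH, were called with less support. Ndufs5 (ENSMUSG00000028648, chromosome 4, 123712710 to 123718202, minus strand) ranged in WT from 10.04 through 12.9 to 19.6 CPM and in KO from 4.70 through 11.4 to 12.6, a difference of -0.40 ± 0.136 (adjusted p = 0.0405). Single KO libraries at CT22, CT1 and CT10 read 5.23, 4.70 and 4.70 CPM while most others stood above 10. Ndufs3 (ENSMUSG00000005510, chromosome 2, 90894634 to 90904827, minus strand) ranged in WT from 36.3 through 43.0 to 49.3 CPM and in KO from 32.6 through 39.2 to 45.5, a difference of -0.13 ± 0.047 (adjusted p = 0.0486). Without the 4 libraries that stand apart Ndufs5 stood at -0.34 (adjusted p = 0.143) and Ndufs3 at -0.13 (adjusted p = 0.0805). Ndufs5 kept the call in 3 of 11 alternative settings, and in 18 of 32 fits with a single library left out (adjusted p up to 0.0788). Ndufs3 kept it in 6 of 11 settings and in 10 of 32 such fits (adjusted p up to 0.0984). With the inner retina covariate Ndufs5 stood at -0.55 and Ndufs3 at -0.02. Of the 50-base stretches of Ndufs5, Ndufs3 and Cox5a, 31.1%, 39.7% and 32.05% occur in other genes, and Ndufs3 shares exon sequence with Kbtbd4 on the other strand, so their counts are less certain than that of Sdha, which shares none.

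The gene furthest from the others in the opposite direction was Ndufa12, an accessory subunit of complex I, singled out after its values were seen. Its difference was 0.36 ± 0.143 (adjusted p = 0.0903), with 0.65 at CT19 and 0.72 at CT10. DESeq2 called it higher over the mean (adjusted p = 0.0463), as did the fits with library totals alone, with the length trend removed and with lens markers. The fit with lens markers also called Cox4i2 higher, at 0.50 (adjusted p = 0.0386).

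At single times no member was called by edgeR. At CT19 0 of 79 passed, against 5.19% of all genes, with 6 at an unadjusted p under 0.05 (21.4% of all genes) and 1, Atp5l, by DESeq2. The median difference was -0.10 and 66 were lower, beside 8747 of all 17871 genes tested. The median was 0.02 without WT CT19 replicate 4 alone and -0.21 without WT CT19 replicate 3 alone. Without all 4 libraries that stand apart it was -0.10 with 65 lower. At CT22 0 passed, against 1.53% of all genes, with 1, Ndufs5, at an unadjusted p under 0.05 (12% of all genes) and 0 by DESeq2. The median there, -0.04, changed sign to 0.07 without KO CT22 replicate 4 and to 0.05 with library totals alone, a scaling that also moved the median of all genes to 0.11.

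At CT1 the genes leaned lower most evenly. A total of 75 of 79 were below WT, beside 8861 of all 17871 genes tested. The median was -0.22 against 0.00 for all genes, and the complexes had medians of -0.18 (I), -0.15 (II), -0.24 (III), -0.28 (IV) and -0.20 (V). Other sets leaned the same way. The mean library deviation was 0.16 in WT and -0.04 in KO for the 79 genes. It was 0.26 and -0.07 for ribosomal protein genes, and 0.08 and -0.04 for the shortest quartile of other genes. No gene was called by edgeR, against 1.58% of all genes; 16 had an unadjusted p under 0.05 (13.5% of all genes) and DESeq2 called 1, Cox5a (adjusted p = 0.0332). Among those 16, picked out after their values were seen, Uqcrc1 and Uqcrc2, the core proteins of complex III, were at -0.26 and -0.23, and Ndufv2, Ndufa9, Cyc1, Cox8a, Atp5a1 and Atp5d between -0.20 and -0.38. The lean rested in large part on WT CT1 replicate 5: without it the median was -0.08, and without WT CT1 replicate 4 it was -0.30. With the transcript length trend removed it was -0.08 with 62 of 79 lower, and with lens markers as a covariate -0.13. The 4 exceptions were Ndufa5, Cox6c, Atp5l and Atp5s.

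At CT10 the lean was the other way, with 54 of 79 higher in KO, beside 8784 of all 17871 genes tested, and a median of 0.06. No gene was called by edgeR, against 10.2% of all genes; 4 had an unadjusted p under 0.05 (24% of all genes) and DESeq2 called 0. Complex II differed in sign from the other complexes, with 3 of its 4 genes lower. Ndufa12 read 16.8, 13.9, 7.21 and 13.5 CPM in WT and 22.002, 20.2, 20.8 and 21.8 in KO, groups that did not overlap. Cox4i2 read 4.33, 1.95, 2.53 and 3.96 CPM in WT and 5.15, 4.70, 7.21 and 5.35 in KO, also without overlap. Their differences of 0.72 and 0.81 had adjusted p-values of 0.114 and 0.127. How many of all tested genes lacked overlap at CT10 was not counted. Endothelial and mural markers at CT10 stood at a mean log2 CPM of 0.70 in WT and 1.69 in KO. These were the lowest and the highest of the 8 group means of that list. The bipolar, horizontal and microglia lists also had their lowest mean in WT and their highest in KO at CT10. The part of any of these cell types in the Cox4i2 difference was not tested. Inner retina markers were lowest in WT at CT10, and with them as a covariate the median of the 79 was 0.01. With lens markers as a covariate it was 0.18 (67 higher), with library totals alone 0.13 (68 higher) and with the replicate block 0.10 (60 higher).

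**Figure D4:**
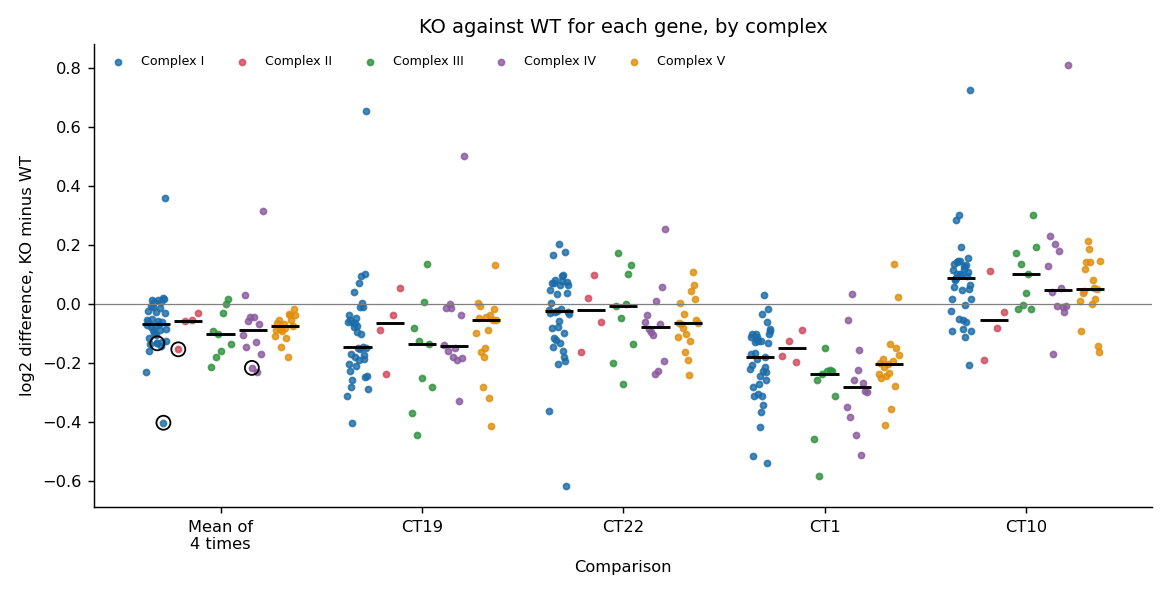
KO minus WT log2 difference of each gene (points) averaged over the 4 times and at single times, by complex; black bars are medians of a complex and open rings mark the 4 genes called with an adjusted p under 0.05. Medians lie below 0 at CT1 in every complex and above 0 at CT10 in all but complex II.

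The second comparison asked whether the transcripts differed among the 4 circadian times within WT. Of the 79 genes 7 were called, against 14.6% of all genes tested, and 14 had an unadjusted p under 0.05 (29.4% of all genes). They were Sdhb, Atp5d, Ndufb7, Ndufa6, Ndufa3 and Ndufs1, and as the seventh, outside the limit of 6 names and given after its values were seen, Ndufv1. Of these 7, 5 were highest at CT19, 1 (Ndufv1) at CT1 and 1 (Ndufs1) at CT10, and 6 were lowest at CT10. Among all 79, 58 had their highest WT mean at CT1 and 55 their lowest at CT10. Without WT CT1 replicate 5 the highest mean fell at CT19 for 35 and at CT1 for 20, while 55 were still lowest at CT10. Without all 4 libraries that stand apart it fell at CT19 for 44 and at CT1 for 18, with 52 lowest at CT10. Without the 4 libraries that stand apart 5 genes were called.

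The stretches around the transcription start of 5 of these genes are shown because they are the ones highest at CT19 in WT, and those of Sdha and Cox5a because they were called between genotypes. Each runs from 150 bases before the RefSeq start to 30 after it, on the coding strand of the gene, in build GRCm38.p6, with capitals marking matches to the cores GCATGCGC (of NRF1), CCGGAAG (of ETS factors such as GABPA), AAGATGGC (of YY1), CACGTG (E-box), and TTATGTAA or TTATGCAA (D-box), searched on both strands.
Sdhb (chr4:140961121-140961300, plus strand): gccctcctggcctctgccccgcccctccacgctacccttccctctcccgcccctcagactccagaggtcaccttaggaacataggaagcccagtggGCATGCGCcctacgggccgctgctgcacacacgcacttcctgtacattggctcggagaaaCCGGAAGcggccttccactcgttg
Atp5d (chr10:80142125-80142304, plus strand): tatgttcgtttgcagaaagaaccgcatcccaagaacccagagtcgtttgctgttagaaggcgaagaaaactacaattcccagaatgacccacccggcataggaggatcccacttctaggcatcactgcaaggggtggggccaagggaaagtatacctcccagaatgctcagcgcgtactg
Ndufb7 (chr8:83566608-83566787, plus strand): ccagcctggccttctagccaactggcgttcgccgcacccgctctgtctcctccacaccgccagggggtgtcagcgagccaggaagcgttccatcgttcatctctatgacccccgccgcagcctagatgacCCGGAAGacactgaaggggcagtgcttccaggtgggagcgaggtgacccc
Ndufa6 (chr15:82354262-82354441, minus strand): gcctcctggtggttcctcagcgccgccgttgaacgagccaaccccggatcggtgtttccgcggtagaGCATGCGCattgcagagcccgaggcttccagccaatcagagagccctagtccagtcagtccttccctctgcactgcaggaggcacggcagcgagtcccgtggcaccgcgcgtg
Ndufa3 (chr7:3617223-3617402, plus strand): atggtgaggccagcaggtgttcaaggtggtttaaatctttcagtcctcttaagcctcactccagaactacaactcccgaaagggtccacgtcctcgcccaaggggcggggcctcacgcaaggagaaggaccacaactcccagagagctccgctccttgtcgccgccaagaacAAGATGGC
Sdha (chr13:74350211-74350390, minus strand): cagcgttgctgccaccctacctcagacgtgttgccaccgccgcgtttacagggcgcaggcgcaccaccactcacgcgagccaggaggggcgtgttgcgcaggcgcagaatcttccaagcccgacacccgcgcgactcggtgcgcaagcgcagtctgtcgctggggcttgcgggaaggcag
Cox5a (chr9:57521082-57521261, plus strand): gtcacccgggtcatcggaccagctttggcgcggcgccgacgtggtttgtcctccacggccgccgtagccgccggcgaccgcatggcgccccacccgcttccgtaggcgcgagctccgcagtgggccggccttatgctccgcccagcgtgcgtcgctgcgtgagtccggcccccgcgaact
Sdhb held an NRF1 and an ETS core, Ndufb7 an ETS core, Ndufa6 an NRF1 core and Ndufa3 a YY1 core, while no searched letters occurred in the windows of Atp5d, Sdha and Cox5a.

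RefSeq windows of 300 bases were matched for 63 of the 79 genes. Some genes have more than 1 start, which gave 68 windows. The NRF1 core occurred in 10 of these (14.7%), against 2.71% of all 32851 windows in the table. The ETS core occurred in 16 (23.5%), against 8.86%, and the YY1 core in 9 (13.2%), against 2.75%. The E-box, the clock's own element, was found in 6 (8.82%), against 7.15%, and the D-boxes in 1 and 0 windows, against 0.938% and 0.743%. The E-box cores lay near Atp5g1, Atp5g3, Atp5l, Ndufa7 and Ndufv1. A match describes letters only.

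Sdhb (ENSMUSG00000009863, chromosome 4, 140961203 to 140979193, plus strand), which holds the iron-sulfur clusters of complex II, read 54.3, 49.3, 52.8 and 54.0 CPM in the 4 WT libraries at CT19. At CT22 it read 42.2, 42.7, 46.7 and 40.4, at CT1 45.9, 39.0, 42.1 and 54.4, and at CT10 36.0, 38.2, 36.5 and 39.4. Every CT19 library lay above every CT22 and CT10 library. The WT means spanned 0.49 log2 units (adjusted p = 0.00211), and the call held under all 12 alternative settings and with any single library left out (adjusted p up to 0.0129 and 0.0086). In KO the means were 44.6 ± 3.23, 43.6 ± 3.38, 41.5 ± 3.83 and 40.5 ± 3.67 CPM (SD, n = 4 each), a span of 0.14 that did not pass (adjusted p = 0.828). The difference between the genotypes in time course did not pass either (interaction, unadjusted p = 0.0398, adjusted p = 0.275).

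Atp5d (ENSMUSG00000003072, chromosome 10, 80138632 to 80145818, plus strand), the delta subunit in the central stalk of ATP synthase, read 104, 103, 88.8 and 94.3 CPM at CT19 in WT. It read 86.9, 86.2, 101 and 104 at CT22, 97.0, 78.6, 91.5 and 108 at CT1, and 64.8, 73.2, 74.1 and 69.6 at CT10. All 4 CT10 libraries lay below every other WT library. The span was 0.47 (adjusted p = 0.00265), also held under all 12 settings and every single library left out (adjusted p up to 0.0278 and 0.0203). In KO its means ran from 94.5 ± 4.15 CPM at CT19 to 77.8 ± 5.86 at CT10, a span of 0.28 (unadjusted p = 0.025, adjusted p = 0.392), and the interaction had an adjusted p of 0.266. Its exons overlap those of Cbarp on the other strand, a gene at 10.1 CPM.

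The complex I accessory subunits Ndufb7, Ndufa6 and Ndufa3 shared a shape, high on average at CT19 and CT1 and low at CT10. Ndufb7 read 43.3, 49.5, 33.7 and 59.2 CPM at CT19 and 28.2, 31.6, 32.9 and 31.2 at CT10, without overlap, and its span of 0.58 had an adjusted p of 0.0218. Ndufa6 read 35.3, 36.3, 29.7 and 57.4 CPM at CT19 and 25.02, 28.2, 29.3 and 24.6 at CT10, again without overlap, with a span of 0.57 and an adjusted p of 0.0327. Ndufa3 read 24.2, 27.8, 19.3 and 32.8 CPM at CT19 and 18.1, 17.8, 20.2 and 17.2 at CT10, where 1 CT19 library fell within the CT10 range, and its span of 0.51 had an adjusted p of 0.0336. In each of them the highest CT19 value came from WT CT19 replicate 4, and without that library the adjusted p was above 0.05 for all 3. In KO their spans were 0.12, 0.05 and 0.04, with no call.

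Ndufs1 and Ndufv1, core subunits of the electron input arm of complex I, were called as well. Ndufs1 (ENSMUSG00000025968, chromosome 1, 63143596 to 63176833, minus strand) read 93.1 ± 8.36 CPM at CT19 and 93.9 ± 3.54 at CT22, against 101 ± 5.09 by CT1 and 108 ± 6.30, its highest, by CT10 (SD, n = 4 each). Its span of 0.22 had an adjusted p of 0.0366. Its exons overlap Eef1b2 and Ino80dos on the other strand, genes at 34.8 and 9.02 CPM. Ndufv1, which binds NADH, was 163 ± 6.86, 155 ± 10.2, 169 ± 16.6 and 141 ± 6.02 CPM at CT19, CT22, CT1 and CT10 (span 0.26, adjusted p = 0.0419). Ndufs1 kept the call in 4 of 12 alternative settings and Ndufv1 in 7, and without the 4 libraries that stand apart their adjusted p-values were 0.0837 and 0.0583.

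**Figure D5:**
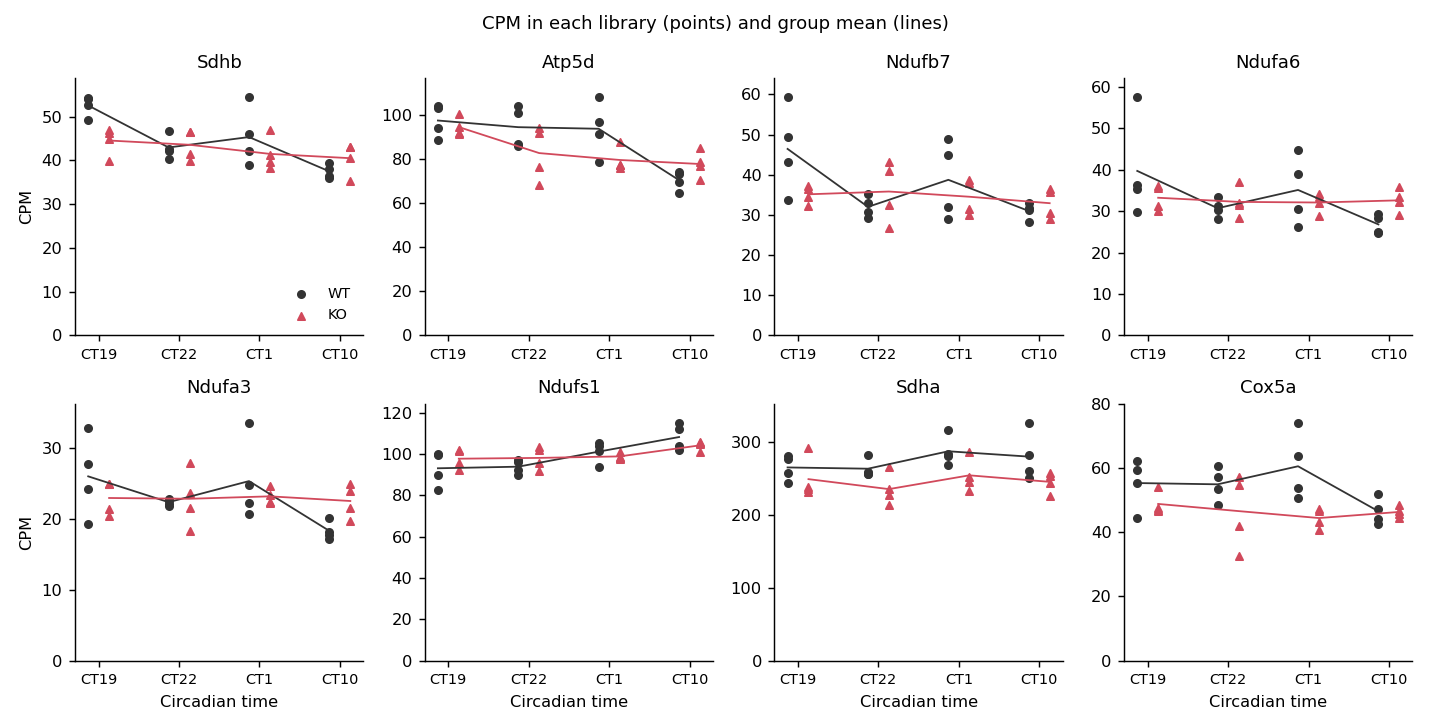
CPM of 8 called genes in every library (circles WT, triangles KO) at each circadian time, with lines through the group means of 4 libraries; the vertical axes start at 0. Sdhb is highest at CT19 and lowest at CT10 in WT, and Atp5d is lowest at CT10. The KO libraries of Cox5a lie below its WT libraries at CT1, where it was not called.

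Within KO no member was called among the times: 0 of 79 were called by edgeR, with 2 at an unadjusted p under 0.05 (Atp5d and Atp5l, against 10.4% of all genes) and 0 by DESeq2. The background was also near 0, at 0.0056% of all genes. The highest KO mean fell at CT19 for 34 genes, CT10 for 25, CT1 for 16 and CT22 for 4, but at CT22 for 40 without KO CT22 replicate 4. The median span was 0.14 log2 units in KO and 0.29 in WT, beside 0.28 and 0.39 for all genes. The genotype by time interaction, which tests the difference between the courses, called 0 of 79 by edgeR, against 1.62% of all genes, with 4 at an unadjusted p under 0.05 (Sdhb, Uqcrc2, Atp5d and Atp5l, against 16.5% of all genes) and 0 by DESeq2. The time courses of the 2 genotypes were therefore not shown to differ for any of these genes.

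The other genes of the pathway were compared between genotypes over the mean of the times, where 16.3% of all tested genes were called. None of the 11 tested transcripts encoded in mitochondrial DNA was called by edgeR, at a median of -0.01 and with 0 at an unadjusted p under 0.05. Their median was -0.33 at CT22 and 0.42 at CT1, with 2 and 3 at an unadjusted p under 0.05 and no call, and among KO times 9 of 11 had an unadjusted p under 0.05, again with no call. None of 15 complex I, 4 complex II, 20 complex IV or 5 complex V assembly genes was called either, with 2, 1, 0 and 0 at an unadjusted p under 0.05. These mitochondrial transcripts ran from 0.242 CPM for mt-Nd3 to 5357 for mt-Cytb, and copies of them elsewhere in the genome were not examined. Of 10 carriers Vdac2, the outer membrane channel, was lower in KO by -0.11 ± 0.033 (adjusted p = 0.0227). Of 20 citric acid cycle genes Idh2 was higher by 0.18 ± 0.063 and Dlst lower by -0.09 ± 0.028 (adjusted p = 0.0491 and 0.0289). Of 15 regulators Esrrb, an orphan nuclear receptor known to control energy metabolism genes in rods, was lower by -0.25 ± 0.050 (adjusted p = 0.000947).

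Of 6 complex III assembly genes 2 were called. Lyrm7, a chaperone of the Rieske protein, fell in KO by 0.73 ± 0.176 on the log2 scale (adjusted p = 0.00462); at CT10 it stood at 8.79 ± 1.64 CPM in WT, with libraries from 7.50 to 11.1, and at 3.15 ± 0.0596 in KO, with libraries from 3.09 to 3.23 (SD, n = 4 each). Ttc19, which helps clear Rieske fragments from the complex, went in opposite directions over the times. In WT its means were 89.1 ± 17.01, 85.2 ± 4.90, 69.9 ± 8.38 and 64.9 ± 4.61 CPM at CT19, CT22, CT1 and CT10, and in KO 76.1 ± 6.68, 82.2 ± 3.67, 88.0 ± 3.50 and 94.7 ± 2.87. Its interaction passed (adjusted p = 0.00278), as did its mean difference of 0.15 ± 0.047 (adjusted p = 0.0288). Of the 9 structural subunits of complex III edgeR called 0 in these tests, with 2 at an unadjusted p under 0.05 for the mean and 3 among WT times, of which DESeq2 called 1, Uqcr10.

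Among times in WT, where 14.6% of all tested genes were called, the calls were 1 of 11 mitochondrial transcripts, 1 of 15 complex I, 1 of 4 complex II, 2 of 6 complex III, 2 of 20 complex IV and 0 of 5 complex V assembly genes, 0 of 10 carriers, 0 of 20 citric acid cycle genes and 3 of 15 regulators. At an unadjusted p under 0.05 the lists with no call had 1 (complex V assembly), 3 (carriers) and 0 (citric acid cycle). Coa5, a cytochrome c oxidase assembly factor, rose from 47.0 ± 3.45 CPM at CT19 through 53.7 ± 4.51 and 58.3 ± 6.87 to 69.2 ± 5.18 at CT10 (span 0.56, adjusted p = 0.000188), and all CT10 libraries lay above all CT19 libraries. Sco1, a copper chaperone of the same enzyme, went from 13.7 ± 0.363 CPM at CT22 to 19.3 ± 2.09 at CT10 (span 0.50, adjusted p = 0.00379). Sdhaf3, a complex II assembly factor, rose from 9.77 ± 0.495 CPM at CT19 to 14.4 ± 1.31 at CT10 (span 0.56, adjusted p = 0.0012), the times at which Sdhb was highest and lowest. Ppargc1a, a coactivator of mitochondrial genes, rose from 76.1 ± 7.50 CPM at CT19 to 97.5 ± 12.2 at CT10 (span 0.36, adjusted p = 0.0379), and Tfb1m, a mitochondrial rRNA methyltransferase, from 4.98 ± 0.759 at CT22 to 7.30 ± 0.791 at CT10 (span 0.55, adjusted p = 0.0436). mt-Nd6 was lowest at CT19, at 63.3 ± 8.12 CPM, and highest at CT22, at 106 ± 4.94 (span 0.75, adjusted p = 0.0174), and Acad9, a complex I assembly factor, spanned 0.31 (adjusted p = 0.0345).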

How the data were processed

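RNA of microdissected photoreceptors was sequenced in 32 libraries, 4 for each of 8 groups assigned by their labels. The values are raw read counts per gene as deposited by the authors in 1 table. The submitters' processing notes list HTSeq 0.11, HISAT2 2.1.0, Trimmomatic 0.32 and Cufflinks, with build GRCm38.p6. The sources used here give neither the annotation release nor the strand setting, so reads of overlapping genes on opposite strands cannot be told apart. Exon overlap with a tested gene was found for 21 of the 79 genes, all on the opposite strand, and 12 had at least 30% of their 50-base stretches in another gene; this was checked for these 79 genes only. Names, positions and lengths came from GENCODE M21.

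Counts were fitted in R 4.3.3 with edgeR 4.0.16 (filterByExpr, 17871 genes, TMM, robust quasi-likelihood, 8 group means, 24 residual degrees of freedom), and p-values were adjusted by Benjamini-Hochberg over all tested genes. A gene is called at an adjusted p under 0.05, and adjusted p-values not credited to another tool come from this fit. CPM are TMM-scaled unless said otherwise. For tests among times the size is the span of the fitted means. Deviations are log2 CPM minus the gene's mean over 32 libraries. Where libraries of different groups are said not to overlap, the share of all tested genes without overlap was not counted. DESeq2 1.42.0 and the other settings are alternatives. Named genes are up to 10 called members for the mean, 4 at each time and 6 for each test among times, the highest and lowest per complex, the isoform sets, and called genes of the other lists (up to 4 for the mean, 2 for each test among times); any other gene named was picked after its values were seen. The members and lists were chosen with earlier results of these data known. On simulated counts for the 17871 genes, the mean contrast recovered 44% of changes of 0.3 and 94% of 0.5 (log2), and the test among WT times 10% and 44%, with 6.63% and 4.65% false calls.

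The labels give animal numbers, and p-values measure the spread between these libraries. Same-numbered libraries of different groups did not deviate together.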

Additional observations from a re-analysis of the deposited data

Results flagged for a closer look

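In 8 of 224 groups of 4 libraries tested, 1 library stood far from the other 3, and chance gives about 1 in 20. The summed CPM of complex I in WT CT22 replicate 2 was 1654, with the next at 1880. Sdha read 283 CPM in WT CT22 replicate 6 (next 259) and 292 in KO CT19 replicate 2 (next 239). Cox5a read 54.1 in KO CT19 replicate 4 (next 47.5), Atp5d 87.7 in KO CT1 replicate 4 (next 77.5) and Ndufs5 4.70 in KO CT10 replicate 2 (next 11.6). Cox7a2 and Ndufa4 were both highest in WT CT10 replicate 2, at 49.2 and 173 CPM (next 41.0 and 136).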

How the results depend on the processing

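Counts of called members over the mean of the times changed from 4 to 1 with library totals alone (Ndufa12, higher), 2 without a low-count filter and 0 with inner retina markers as a covariate; DESeq2 gave 5 and the other settings 3 or 4, among them Ndufa12 higher (DESeq2, lens markers, length trend removed), Cox4i2 higher (lens markers) and Ndufab1 lower (without the 4 libraries). At CT19 and CT1 DESeq2 gave 1 each in place of 0. At CT10 the count was 2 with only the groups compared, 2 with lens markers as a covariate, 2 with the length trend removed and 1 without the 4 libraries that stand apart (chosen after seeing the data), in place of 0. Among WT times it was 2 with only the groups compared and 3 with inner retina markers, in place of 7. With each library left out in turn the counts ranged from 2 to 4 (mean), 0 to 1 (CT19), 0 to 1 (CT1) and 3 to 8 (WT times, lowest without WT CT10 replicate 2 or 5), and were 0 at CT22, at CT10, among KO times and for the interaction. The mean count of 2 came without any of WT CT19 replicate 2, WT CT22 replicates 1, 3 and 6, WT CT1 replicate 5, WT CT10 replicates 2 and 4, KO CT19 replicate 3 or KO CT22 replicate 1; the WT time count was 4 without WT CT19 replicate 2 or 4 or WT CT10 replicate 1. A call arose at CT19 without WT CT19 replicate 1, at CT1 without WT CT1 replicate 4, and at both without KO CT22 replicate 4. The counts for KO times, the interaction and CT22 were 0 under every setting run, DESeq2 included.

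With the replicate number as a block 3 members were called for the mean and 7 among WT times, in place of 4 and 7. The numbers gave no sign of pairing: the median correlation of same-numbered libraries of different groups was -0.02 over 77 pairs. The 4 members called for the mean stayed below 0 under every setting run; spans among times carry no sign. A level of 5 CPM stood for at least 119 counts in a library, and the part of depth in the results was not tested. Changes of 0.3 log2 at single times were rarely recovered in simulated counts drawn independently for each gene (8% at CT10).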
